A study of Arabidopsis thaliana with 16 samples.

Results

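The loci described here are those of the Arabidopsis thaliana root tip with their highest transcript level in sorted quiescent centre (QC) marker cells. They were chosen by their level: loci that carry a single gene ID, reach at least 20 FPKM (a fragment count scaled to transcript length and library size) in the marker cells, and stand at least 3-fold above each of the other 3 sorted populations. This rule picked 35 of the 7045 single-ID loci with at least 20 FPKM in those cells, a share of 0.497%, out of 32919 single-ID loci in all. All 4 populations came from 5-day-old roots, of which approximately 1 mm of tip was protoplasted (freed of cell walls) and sorted by green fluorescence. W5S were GFP-positive cells of pWOX5:erGFP roots, the QC marker line, and W5NS were the GFP-negative cells of the same line, a mixture of the other cells of the tip. C6 were GFP-positive cells of pCYCD6:GUS-GFP roots, a marker of the initial cell (CEI) whose daughters form cortex and endodermis. w5C6 were GFP-positive cells of the same reporter crossed into the wox5 mutant, where the study describes the reporter as extending into cortex and endodermal cells. C6 and w5C6 thus came from another reporter line than W5S and W5NS, so the line and the sorted population cannot be told apart in comparisons between these pairs. Each population had 4 libraries, but the values are 1 pooled level per locus and population. Spread between libraries and depth are therefore not given and no test was run, so that every difference below is a description of 4 pooled values. Values of 0 were counted over all 33201 rows, those with several gene IDs included. They were more frequent in W5S (8239) than in W5NS (5560), C6 (5849) or w5C6 (3957). Their part in low W5S levels was not tested. In such bulk values, fewer cells of a type and less RNA per cell cannot be told apart.

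The QC is a small group of rarely dividing cells at the centre of the root stem cell niche. It keeps the stem cells around it from differentiating. WOX5 (WUSCHEL RELATED HOMEOBOX 5) encodes a homeodomain transcription factor made in the QC that maintains the columella stem cells below it. Other niche regulators, such as the PLETHORA factors PLT1 and PLT2 or the GRAS factor SCR, are transcribed in wider domains than WOX5.

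WOX5 was the reporter gene of the sort and the first check of the labels. It stood at 206 FPKM in W5S, 18.4 in C6, 0.0865 in w5C6 and 42.1 in W5NS. The level in the wox5 mutant cells was 99.5% below that in C6, as the label of a wox5 mutant would have it. The GFP-negative cells still held 20.4% of the W5S level, which was the median share of the 35 loci (20.4%): 17 of the others had a lower W5NS share and 17 a higher one. WOX5 ranked 5 by W5S level and 10 by the ratio of W5S to the highest other population (4.90).

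The 35 loci spanned a wide range of levels, and many lay near the limits of the rule. Their W5S levels ran from 21.1 to 628 FPKM with a median of 42.1, and the medians in the other cells were 7.72 in W5NS, 6.94 in C6 and 6.11 in w5C6. In W5S, 10 loci reached 100 FPKM or more, 5 lay between 50 and 100, and 20 lay under 50. The ratio of W5S to the highest other population was at least 10 for 2 loci, at least 5 for 9, and under 3.5 for 15. The median ratio was 3.76, beside 0.884 over all 7045 loci, a contrast that the rule itself set. Together the 35 loci made up 0.457% of the summed FPKM of W5S, against 0.0989% in W5NS, 0.0659% in C6 and 0.0726% in w5C6.

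**Figure D1:**
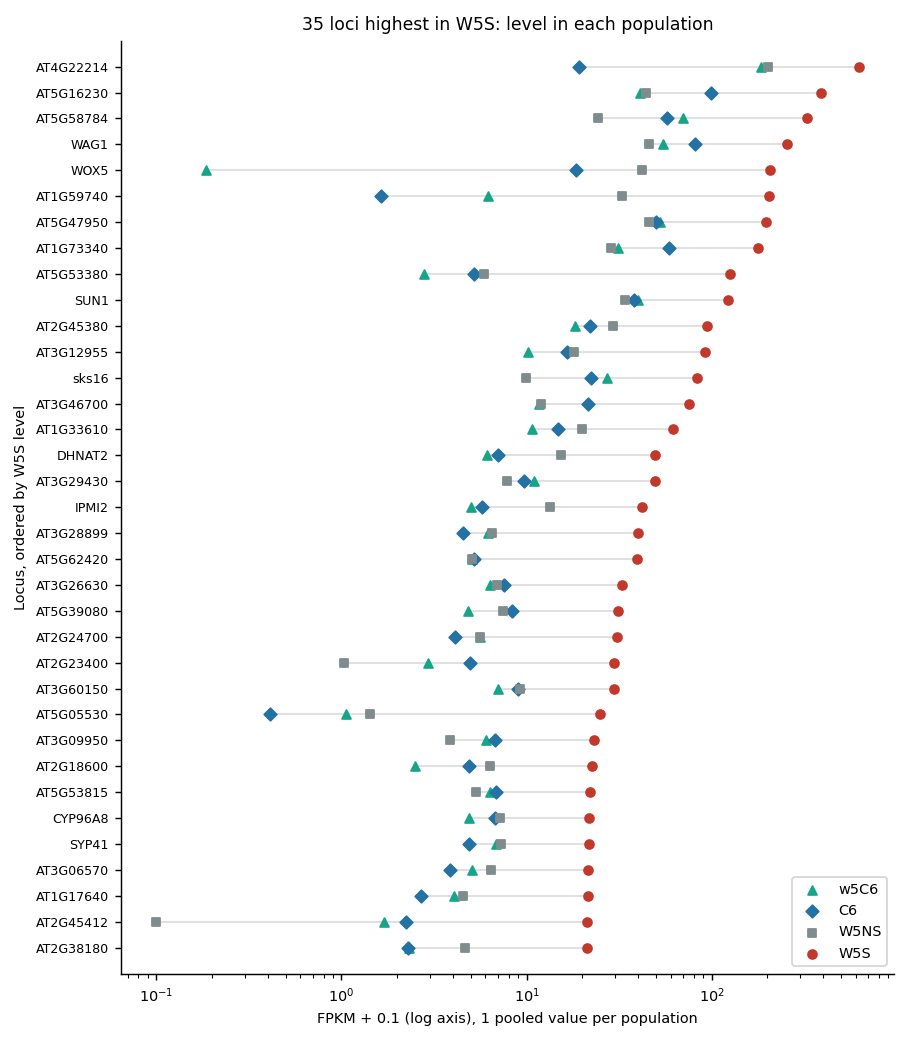
Level of each of the 35 loci in the 4 populations (x axis, FPKM + 0.1 on a log axis; 1 pooled value per point, no error bars), ordered by W5S level from 21.1 to 628 FPKM. W5S lies to the right of every other population by the rule, and the lowest points are WOX5 in w5C6 (0.0865 FPKM) and AT2G45412 in W5NS (0 FPKM).

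Promoter sequences of 4 of these loci are shown because WOX5 anchors the sort, AT5G53380 had the largest ratio, and AT5G58784 and AT2G23400 belong to the same enzyme family. Each is the 250 bases before the annotated gene start in the RefSeq annotation of TAIR10.1, found by locus ID, 5′ to 3′ on the strand of the gene. Capitals mark matches to 7 searched motifs, here the G-box CACGTG and, in AT2G23400, the TATA box TATAAA.
WOX5 (chr3:3527030-3527279, plus strand): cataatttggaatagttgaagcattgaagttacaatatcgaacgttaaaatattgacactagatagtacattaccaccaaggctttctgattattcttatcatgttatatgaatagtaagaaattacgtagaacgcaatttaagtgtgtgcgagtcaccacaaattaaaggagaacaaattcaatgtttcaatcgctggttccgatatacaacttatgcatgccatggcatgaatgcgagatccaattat
AT5G53380 (chr5:21654335-21654584, plus strand): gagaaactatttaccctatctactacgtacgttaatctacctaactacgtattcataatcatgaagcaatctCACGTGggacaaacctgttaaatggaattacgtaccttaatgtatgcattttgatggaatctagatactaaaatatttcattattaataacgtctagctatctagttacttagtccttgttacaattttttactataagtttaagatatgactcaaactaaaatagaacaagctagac
AT5G58784 (chr5:23741389-23741638, minus strand): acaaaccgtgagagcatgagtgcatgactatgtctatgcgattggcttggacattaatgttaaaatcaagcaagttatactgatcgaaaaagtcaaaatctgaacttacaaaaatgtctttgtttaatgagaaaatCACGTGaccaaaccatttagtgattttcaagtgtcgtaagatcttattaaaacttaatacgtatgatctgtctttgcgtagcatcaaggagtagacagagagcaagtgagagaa
AT2G23400 (chr2:9965415-9965664, minus strand): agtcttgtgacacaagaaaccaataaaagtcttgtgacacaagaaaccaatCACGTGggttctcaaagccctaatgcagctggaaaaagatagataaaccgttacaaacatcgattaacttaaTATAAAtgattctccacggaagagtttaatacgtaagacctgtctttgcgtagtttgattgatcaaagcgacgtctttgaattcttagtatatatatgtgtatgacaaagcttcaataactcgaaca
The G-box is a palindrome bound by several families of transcription factors. It occurred in 3 of the 33 protein-coding promoters of these loci (9.09%), those of AT5G58784, AT5G53380 and AT2G23400, and in 6.49% of all 27443 promoters of this length. The letters of the G-box start 114 bases before the gene in AT5G58784, 178 before AT5G53380 and 199 before AT2G23400. The AT5G58784 and AT2G23400 promoters also share the run ctgtctttgcgtag of 14 bases, while the longest shared run had a median of 8 bases over 528 pairs of promoters of these loci and a maximum of 17.

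The other motifs were searched on both strands as well. The auxin response element TGTCTC was present in 4 of 33 (12.1%, against 10.9% of all promoters), namely NPF4.3, AT5G47950, AT1G33610 and CYP96A8. The form TGTCGG occurred in 0 of 33 (4.16% of all). The homeodomain elements TTAATGG and TGAATGA, bound by factors of the WUSCHEL type, occurred in 6.06% (6.99% of all) and 3.03% (5.68% of all). The W-box TTGACC occurred in 15.2% (12.2% of all) and TATAAA in 48.5% (47.3% of all), and the median GC content was 32.8% against 31.2%. The WOX5 promoter window held none of the 7 motifs.

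Of the 35 loci, 2 were annotated as transcription factors, and the share over all loci was not counted. Beside WOX5, the other was AT2G24700, of the plant-specific B3 family of DNA-binding proteins. AT2G24700 stood at 30.5 FPKM in W5S, 4.03 in C6, 5.53 in w5C6 and 5.51 in W5NS. Its ratio of 5.53 was a little above that of WOX5, and the other 3 populations were close to each other.

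The group of 4 loci for signalling and auxin held the highest level of all and ran from 62.0 to 628 FPKM in W5S. AT4G22214 encodes a defensin-like protein, a family of secreted peptides rich in cysteine. It stood at 628 FPKM in W5S, 19.1 in C6, 185 in w5C6 and 202 in W5NS. Its ratio was 3.10, with W5NS and w5C6 both high and C6 the one low population. The RefSeq protein has 188 residues and 17 cysteines, and 0 of the 33 proteins of these loci had at most 120 residues with at least 6 cysteines, a form that 2.46% of all 27412 proteins take. WAG1 encodes an AGC kinase that acts with its homologue WAG2 and with PINOID on PIN auxin carriers. WAG1 stood at 256 FPKM in W5S, 81.2 in C6, 54.5 in w5C6 and 46.0 in W5NS. AT3G12955 (SAUR74), of the small auxin-upregulated RNA family, stood at 91.6 FPKM in W5S, 16.5 in C6, 10.08 in w5C6 and 18.003 in W5NS. The leucine-rich repeat protein AT1G33610 followed at 62.0, 14.7, 10.5 and 19.8 FPKM in the same order. For SAUR74 and AT1G33610 the w5C6 level was the lowest of the 4.

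Among the 3 loci of transport and membranes, AT1G59740 stood out for a near absence from the CEI marker cells. It encodes NPF4.3, a member of the NRT1/PTR family of membrane transporters. NPF4.3 stood at 205 FPKM in W5S, 1.53 in C6, 6.07 in w5C6 and 32.9 in W5NS. The 2 populations of the WOX5 reporter line were thus both above the 2 of the CYCD6;1 reporter line. SUN1, a protein of the inner nuclear envelope, was much more even across the others, at 123 FPKM in W5S, 37.8 in C6, 40.1 in w5C6 and 34.1 in W5NS. SYP41, a syntaxin of the trans-Golgi network, lay nearest to the fold limit with a ratio of 3.03 at 21.7 FPKM in W5S.

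Isoprenoid chain synthesis was represented by 3 loci, of which 2 belong to the same small family. AT5G58784 and AT2G23400 are annotated as undecaprenyl pyrophosphate synthetase family proteins, that is cis-prenyltransferases, which build long polyprenyl chains such as those of dolichol. AT5G58784 stood at 326 FPKM in W5S, 57.1 in C6, 69.8 in w5C6 and 24.1 in W5NS. AT2G23400 stood at 29.7 FPKM in W5S, 4.87 in C6, 2.83 in w5C6 and 0.928 in W5NS. For both loci W5NS, the population from the same roots, was the lowest of the 4. The family has 10 annotated loci, and another, CPT (AT2G23410), the gene next to AT2G23400, was also highest in W5S at 98.6 FPKM, against 17.1, 55.7 and 21.9 in W5NS, C6 and w5C6. The 7 remaining loci of the family reached at most 13.3 FPKM in W5S. This family was examined after these values had been seen. AT3G29430, of the terpenoid synthase superfamily, stood at 49.1 FPKM in W5S and between 7.72 and 10.9 elsewhere.

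Acyl and lipid enzymes formed a group of 6 loci, from 21.1 to 390 FPKM in W5S. AT5G16230 is a stearoyl-acyl-carrier-protein desaturase, of the family that sets the first double bond into fatty acids in plastids. It stood at 390 FPKM in W5S, 99.0 in C6, 41.0 in w5C6 and 44.0 in W5NS. AT5G53380, of the WSD1-like O-acyltransferases known for wax ester synthesis, had the largest ratio of all 7045 loci (21.5), at 125 FPKM in W5S, 5.13 in C6, 2.71 in w5C6 and 5.81 in W5NS. Both enzymes act on fatty acyl chains, yet C6 held 25.4% of the W5S level for the first and 4.10% for the second. The HXXXD-type acyltransferases AT5G47950 and AT5G39080 stood at 197 and 31.0 FPKM in W5S, with at most 52.2 and 8.21 elsewhere. DHNAT2, a thioesterase of the phylloquinone pathway, stood at 49.5 FPKM in W5S and 15.3 in W5NS, with no more than 6.94 in C6 and w5C6. The SGNH-type esterase AT2G38180 was the lowest of the 35 in W5S, at 21.1 FPKM.

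A further 6 loci encode enzymes of oxidation, glycosylation and amino acid synthesis. The cytochrome P450 gene AT1G73340 stood at 179 FPKM in W5S, 58.7 in C6, 31.0 in w5C6 and 28.6 in W5NS. sks16, a relative of the multicopper oxidase-like wall protein SKU5, stood at 83.0 FPKM in W5S, 22.3 in C6, 27.2 in w5C6 and 9.87 in W5NS. Their ratios were 3.04 and 3.05, and the next highest population was C6 for AT1G73340 and w5C6 for sks16. The UDP-glycosyltransferase AT3G46700 stood at 75.8 FPKM in W5S and at 21.3 or less elsewhere. AT5G62420, an NAD(P)-linked oxidoreductase, stood at 39.2 FPKM in W5S and between 4.96 and 5.13 in the other 3. IPMI2, a small subunit of the isopropylmalate isomerase of leucine synthesis, stood at 42.1 FPKM in W5S, 5.67 in C6, 4.94 in w5C6 and 13.3 in W5NS. The second P450 gene, CYP96A8, stood at 21.7 FPKM in W5S and 7.08 in W5NS.

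The remaining 11 loci were mostly low. The ubiquitin system gave 3 loci between 21.4 and 24.9 FPKM in W5S, which attach ubiquitin or related modifiers to target proteins. Of these, AT5G05530, a RING-type ligase, was close to absent outside W5S: it stood at 24.9 FPKM in W5S, 0.311 in C6, 0.960 in w5C6 and 1.32 in W5NS, a ratio of 18.9. RNA binding and organelle proteins gave 3 loci between 21.4 and 32.8 FPKM. Another 5 loci were uncharacterised, from 21.1 to 94.4 FPKM, led by AT2G45380, annotated as a myeloid leukemia factor. AT3G28899 stood at 39.9 FPKM in W5S and at 6.38 or less elsewhere. AT2G45412, which had no entry in the RefSeq gene table, was the only locus listed at 0 in any population: it stood at 21.1 FPKM in W5S, 2.12 in C6, 1.59 in w5C6 and 0 in W5NS.

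The loci just outside the limits differed little from those just inside. AT4G30310 (ratio 2.9955) and CYP79B3 (2.99) missed the 3-fold limit, while SYP41 (3.03), AT1G73340 (3.04) and sks16 (3.05) passed it. AT2G17830 at 19.95 FPKM and AT5G56890 at 19.5 FPKM missed the level limit, while AT2G38180 and AT2G45412 (both 21.1 FPKM) passed it. MYB56, also known as BRAVO, a MYB factor that restrains QC divisions, stood at 50.8 FPKM in W5S, 11.2 in C6, 12.3 in w5C6 and 17.56 in W5NS. With a ratio of 2.90 it missed the fold limit. The number of loci depended on the scaling: with FPKM brought to the same nuclear sum, 41 loci met the rule and only 27 of the 35 were among them, AT4G22214, AT1G33610, IPMI2 and DHNAT2 being among the 8 that were lost. Scaled by the median ratio, which moves log2 W5S over C6 or over w5C6 by 0.16, 47 loci met it, the 35 included.

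**Figure D2:**
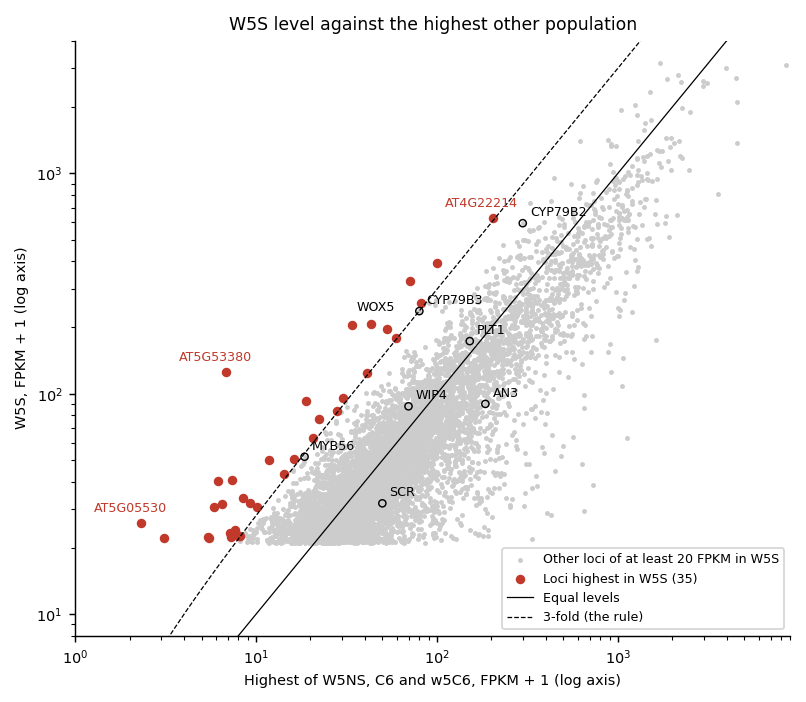
W5S level (y axis) against the highest of W5NS, C6 and w5C6 (x axis), both as FPKM + 1 on log axes, for the 7045 single-ID loci of at least 20 FPKM in W5S. The 35 loci lie on or left of the dashed 3-fold line by the rule; MYB56 (2.90) and CYP79B3 (2.99) lie just right of it, while PLT1, WIP4, SCR and AN3 lie near or beyond equal levels.

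Most other regulators of the stem cell niche did not share the pattern of WOX5. On a list of 27 such genes, 19 averaged at least 20 FPKM over the 4 populations and W5S was highest in 10 of these, beside 29.4% of all loci with that average (2143 of 7300). With median-ratio scaling the count was 10, beside 36.4% of all loci, and with the same nuclear sum it was 9, beside 32.4%. WOX5 was the single one of the 27 among the 35, under a rule that 0.497% of the 7045 loci met. Of the 11 niche genes that were highest in W5S at any level, 8 stood under 1.3-fold above the next population. PLT1, a master regulator of root stem cells, stood at 172 FPKM in W5S and 151 in W5NS, against 45.5 in C6 and 59.7 in w5C6. WIP4, a zinc finger factor of the distal stem cells, stood at 86.8 FPKM in W5S and 68.7 in W5NS, against 2.64 in C6 and 1.51 in w5C6. These genes divided the 2 reporter lines, not the GFP-positive from the GFP-negative cells of the WOX5 line. SCR, which is needed for QC identity, was higher in C6 (48.9 FPKM) than in W5S (30.9), and AGL42, a gene widely used as a QC marker, stood at 20.4 FPKM in W5S, 14.9 in C6, 21.7 in w5C6 and 10.2 in W5NS. AN3, a transcriptional co-activator, stood at 89.0 FPKM in W5S and 26.8 in W5NS, but at 184 in C6 and 161 in w5C6. The 35 loci are therefore called here by their rule and not as QC-specific genes.

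Auxin and glucosinolate genes were described in the same way, beside the 29.4% of all loci that were highest in W5S (36.4% with median-ratio scaling and 32.4% with the same nuclear sum). The rule for the 35 loci was met by 0.497% of the 7045 loci. Among 31 genes of auxin synthesis, transport and response, 20 averaged at least 20 FPKM and 4 of these were highest in W5S (6 with median-ratio scaling and 5 with the same nuclear sum), and 0 of the 31 met the rule. ARF19, an auxin response factor that averaged less than that, had the largest ratio of the list (2.29), at 26.5 FPKM in W5S, 7.02 in C6, 11.6 in w5C6 and 6.15 in W5NS. Glucosinolates are sulphur-rich defence compounds of the cabbage order, made from tryptophan in the indole branch. On a list of 19 glucosinolate genes, 6 averaged at least 20 FPKM and 5 of these were highest in W5S under each of the 3 scalings, and 0 of the 19 met the rule. CYP79B2 and CYP79B3 are the enzymes that turn tryptophan into an oxime from which indole glucosinolates, camalexin and auxin can be made. CYP79B2 stood at 594 FPKM in W5S, 139 in C6, 267 in w5C6 and 297 in W5NS. CYP79B3 stood at 236 FPKM in W5S, 28.8 in C6, 79.0 in w5C6 and 54.4 in W5NS. The next enzyme, CYP83B1, stood at 314 FPKM in W5S and between 109 and 206 elsewhere, and the regulator MYB34 at 111 FPKM in W5S and between 72.5 and 79.6 elsewhere. The 9 genes of the aliphatic branch reached at most 1.60 FPKM in W5S and 5.51 in any population. The exception among the 6 was the transporter GTR1, which was lowest in W5S (30.9 FPKM) and highest in C6 (169 FPKM).

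**Figure D3:**
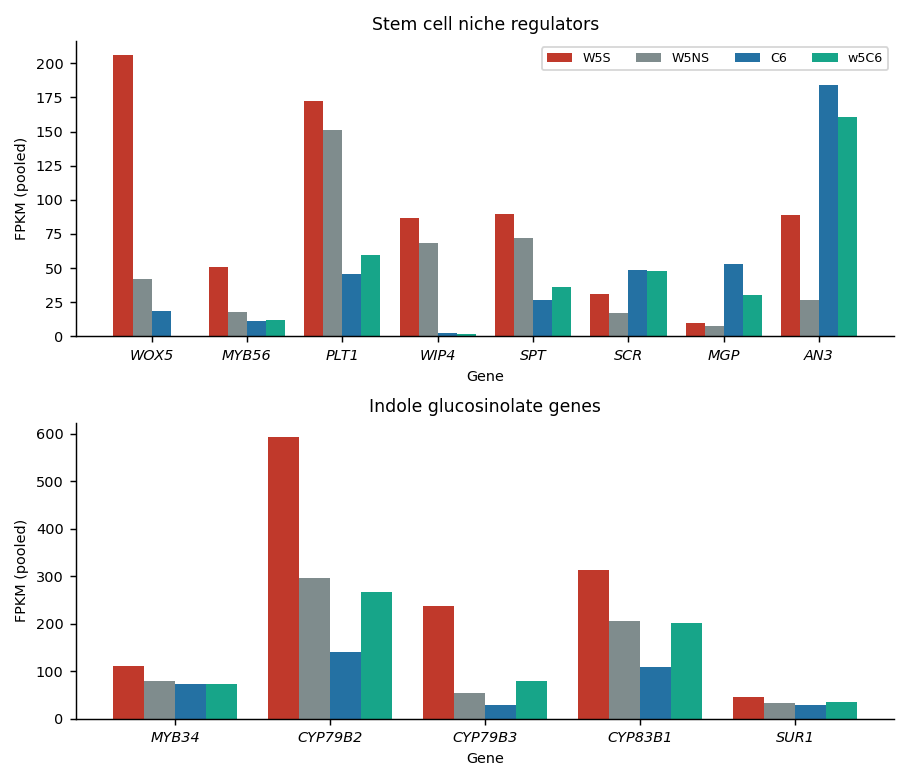
Pooled FPKM (y axis from 0) of 8 niche regulators (top) and 5 indole glucosinolate genes (bottom) in the 4 populations; bars are single pooled values with no error. Among the 8 niche regulators only WOX5 and MYB56 stand clearly above W5NS and both CEI marker populations, whereas the 5 indole genes shown are each highest in W5S. MYB51 and MYB122, which are not shown, were low and not highest in W5S.

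The other gene lists are read beside the same 29.4% of all loci. Myrosinases, the enzymes that cleave glucosinolates, and their relatives gave 9 of 14 genes with at least 20 FPKM on average, of which 4 were highest in W5S (5 with median-ratio scaling). TGG4, a root myrosinase, stood at 1329 FPKM in W5S, 980 in C6, 165 in w5C6 and 117 in W5NS. Of 11 mitosis and replication genes at that level 3 were highest in W5S, and of 11 heat, wound and touch genes 0 were (1 under either scaling). On a list of thalianol and marneral genes, added after the values had been seen, 4 of 6 were highest in W5S. It includes AT5G47950, the acyltransferase beside the thalianol genes, and MRN1, marneral synthase, at 48.2 FPKM in W5S, 8.44 in C6, 16.4 in w5C6 and 17.5 in W5NS, while THAS1, thalianol synthase, was lowest in W5S (39.95 FPKM).

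Markers of other cell types were present in W5S as well. The 9 root cap markers summed to 840 FPKM in W5S, 1076 in C6, 286 in w5C6 and 665 in W5NS, with none at 0. The root cap factors BRN1 and BRN2 were highest in W5S, with ratios of 1.46 and 1.71 to the next population, C6. BRN1 stood at 146 FPKM in W5S, 99.7 in C6, 42.8 in w5C6 and 33.3 in W5NS. BRN2 stood at 126, 73.7, 36.4 and 32.4 FPKM in the same order. The 9 endodermis and Casparian strip markers summed to 171 FPKM in W5S, 970 in C6, 76.5 in w5C6 and 211 in W5NS. Again none was at 0. The 7 epidermis markers summed to 444 FPKM in W5S, 677 in C6, 977 in w5C6 and 347 in W5NS. For the 7 vascular markers the sums were 64.0 FPKM in W5S, 51.1 in C6, 53.6 in w5C6 and 78.5 in W5NS. Among markers that averaged at least 20 FPKM, W5S was highest in 2 of 8 for the root cap, 0 of 4 for the endodermis, 1 of 6 for the epidermis and 0 of 1 for the vasculature. Most of the root cap list went the other way from BRN1 and BRN2: 6 of the 9 markers, such as SMB (48.2 FPKM in W5S and 72.2 in W5NS), were lower in W5S than in W5NS, with a median log2 difference of -0.34 over the list. The part of these cell types in the levels of the 35 loci was not tested.

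Marker cells of the wox5 mutant (w5C6) were set against those of C6. The rule did not use this contrast, although it holds both levels at least 3-fold under W5S. Because the study describes a wider reporter domain in wox5, genotype and the mix of sorted cells cannot be told apart here. A call here means a 2-fold difference on the log2(FPKM + 1) scale, which understates the difference of low genes. Of the 35 loci, 2 were called higher in w5C6 (5.71%, beside 1.48% of the 7045 loci) and 2 lower (5.71%, beside 4.83%). The higher ones were AT4G22214, the defensin-like gene (19.1 FPKM in C6 and 185 in w5C6, a log2 difference of 3.21), and NPF4.3 (1.53 and 6.07 FPKM, 1.49). The lower ones were WOX5 itself (18.4 and 0.0865 FPKM, -4.16) and the desaturase AT5G16230 (99.0 and 41.0 FPKM, -1.25). WOX5 is the gene mutated in w5C6 and served above as the check of the labels, so its call is no separate result. Over all 35 loci the median log2 difference was -0.17, beside -0.04 over the 7045 loci. The quartiles were -0.59 and 0.28, beside -0.30 and 0.19. Of the 35 loci, 21 were lower and 14 higher in w5C6 at any size. This split was not counted over the 7045 loci, so it is not read as a trait of the 35. The other 31 loci differed by less than 2-fold on this scale. The endodermis markers given above differed far more between C6 and w5C6 (7 of 9 lower by at least 2-fold), and 3 of 9 root cap markers were lower; their part in these differences was not tested.

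**Figure D4:**
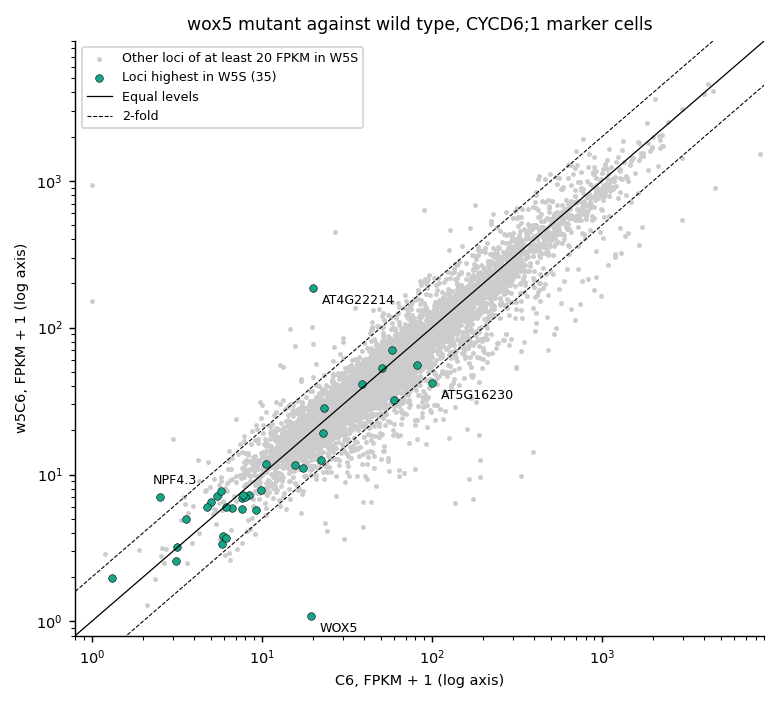
Level in w5C6 (y axis) against C6 (x axis), both as FPKM + 1 on log axes, for the 35 loci (filled) and the other loci of at least 20 FPKM in W5S (grey); the dashed lines mark 2-fold. WOX5 and AT5G16230 lie below the band and AT4G22214 and NPF4.3 above it, while the other 31 loci lie within it.

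The CEI marker cells were also set against the GFP-negative cells of the WOX5 line, and most of the 35 loci were not called different. Comparing C6 with W5NS, 6 loci were called higher in C6 (17.1%, beside 8.9% of the 7045 loci) and 5 lower (14.3%, beside 4.34%), while 24 were not called. The higher ones were AT2G23400, AT5G58784, AT5G16230, sks16, AT1G73340 and AT2G45412. The lower ones were NPF4.3, AT4G22214, WOX5, IPMI2 and DHNAT2. Comparing w5C6 with W5NS, 3 loci were called higher (8.57%, beside 6.29%) and 5 lower (14.3%, beside 4.4%), while 27 were not called. The higher ones were AT5G58784, sks16 and AT2G45412, and the lower ones WOX5, NPF4.3, IPMI2, DHNAT2 and the ubiquitin-conjugating enzyme AT2G18600. Both comparisons share W5NS, and both set cells of different reporter lines against each other.

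Which population came second also varied among the loci. W5NS was next highest for 18 of the 35 (51.4%), C6 for 11 (31.4%) and w5C6 for 6 (17.1%). Among the 2644 other loci that were highest in W5S the shares were 43.7%, 30.1% and 26.2%. The lowest population was w5C6 for 14 of the 35 loci, W5NS for 12 and C6 for 9. The matching shares among the 2644 other loci were not counted, so this split is not read as a trait of the 35.

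Closest relatives of the loci were compared for the same pattern. By protein alignment over at least 50% of the protein, a closest paralogue was found for 31 loci, and 0 of these paralogues were among the 35. The rule itself passed 0.497% of the 7045 loci. W5S was highest in 10 of the 31 at any level (32.3%, with 11 under median-ratio scaling and 12 under the same nuclear sum). Of the 10 paralogues that averaged at least 20 FPKM, W5S was highest in 7, beside 29.4% of all loci with that average. In W5S, 10 of the 31 paralogues reached 20 FPKM and 11 stood under 1 FPKM. The median identity was 62.6%, and 4 pairs had at least 80%, the pairs in which reads are most easily shared between copies. The closest was AT3G29430 with AT3G32040 (91.4% identity), which was listed at 0 in W5S, W5NS and C6. The closest relative of WOX5 was WOX7 (78.7% identity over 51.6% of WOX5). WOX7 stood at 0.107 FPKM in W5S, 28.0 in C6, 29.1 in w5C6 and 5.70 in W5NS. The order of the populations was thus the reverse of that of WOX5, and the wox5 mutant cells differed little from C6. Among the desaturases, AT3G02610 (83.3% identity with AT5G16230) reached only 1.52 FPKM in W5S and 3.00 in C6.

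In some pairs both genes were highest in W5S. sks15, the closest relative of sks16, stood at 473 FPKM in W5S, 220 in C6, 230 in w5C6 and 117 in W5NS, a ratio of 2.06 at a far higher level than sks16 itself. WAG2 stood at 84.9 FPKM in W5S, 44.7 in C6, 65.5 in w5C6 and 52.6 in W5NS, a ratio of 1.297 beside 3.15 for WAG1. AT2G43090, the gene next to IPMI2 and its relative, stood at 566 FPKM in W5S, 304 in C6, 270 in w5C6 and 362 in W5NS. Over the 10 pairs in which both genes were highest in W5S, the relative had the smaller ratio in 9 and the larger in 1, AT3G46680 (5.32, at 2.91 FPKM in W5S) beside AT3G46700 (3.56).

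**Figure D5:**
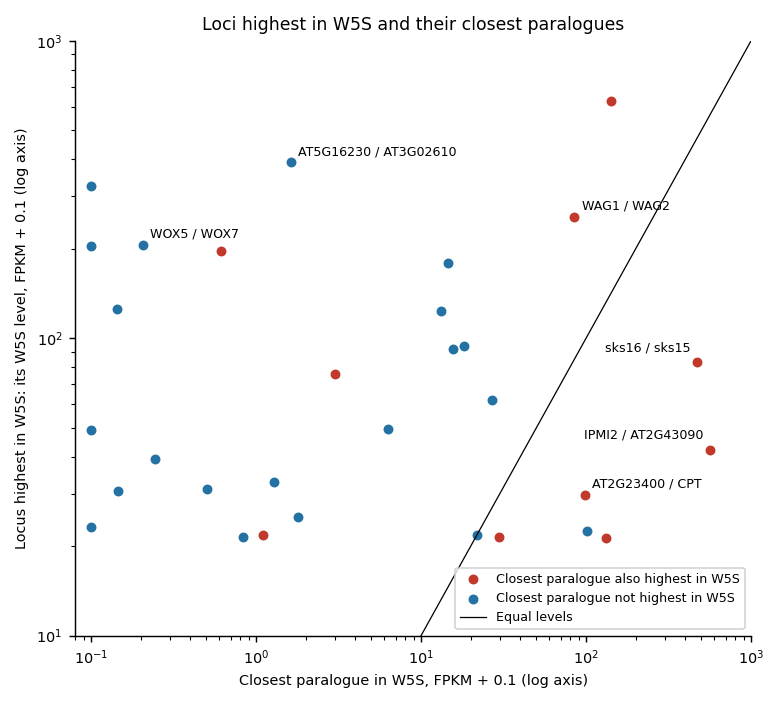
W5S level of 31 of the loci (y axis) against the W5S level of their closest paralogue (x axis), both as FPKM + 0.1 on log axes; colour shows whether the paralogue was also highest in W5S (10 of 31). WOX7, at 0.107 FPKM, lies far left of WOX5, whereas sks15 and AT2G43090 exceed sks16 and IPMI2.

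The loci were scattered over the genome. Chromosomes 1 to 5 held 6, 7, 9, 1 and 11 of the 34 loci that matched the RefSeq gene table, 0 pairs lay within 5 genes of each other, and 7 of the 31 paralogues lay within 5 genes of their relative. Of 57 adjacent genes in the table, 16 reached 20 FPKM in W5S and 9 of these were highest there, beside 38.0% of all loci at that level (2679 of 7045). Of the 34 matched loci, 33 were protein-coding and AT5G53815 was annotated as a pseudogene. The proteins had a median length of 369 residues, beside 348 over all proteins.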

How the data were processed

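The authors sorted protoplasts of root tips, amplified the little RNA obtained with SMART-Seq chemistry, read 100 bp single ends, trimmed with fastq-mcf, aligned with HISAT2 and estimated expression with Cufflinks through TuxNet. HISAT2 and Cufflinks are also named in the submitters' processing notes. Tool versions, the genome build and the annotation were not given in the sources used here. For each locus the deposited table has 1 value for a population, which pools 4 libraries and is taken here as FPKM. The header names no unit, so this rests on the pipeline and the study's wording. Depth is unknown. Amplification of small inputs can lose low transcripts, which bears on values listed at 0. The 12 other columns hold the authors' log2 fold changes and q-values for 6 comparisons and were not used.

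No test was run. Members followed the stated thresholds among rows with 1 gene ID, and 0 of the 282 rows with several IDs met them. Log2 ratios were taken of FPKM + 1. The thresholding code was tested on simulated data. Of 32919 single-ID loci, 32218 matched the RefSeq gene table by locus ID. Promoters came from TAIR10.1, paralogues from blastp (BLAST+ 2.17.0, E-value limit 1e-05). Python 3.11.15, pandas 2.3.3, NumPy 2.4.6 and matplotlib 3.10.9 were used. The members and the gene lists were chosen with earlier results of these data known, and the roles, the cis-prenyltransferase family and the thalianol and marneral list after the values were seen. Named genes were WOX5, the 20 members highest in W5S, the 10 with the largest ratio, the 5 highest and 5 lowest in w5C6 over C6, members with regulatory, transport, wall or P450 annotations, the 3 loci nearest each threshold, and list genes on which a result turned. Others were chosen after their values were seen. Alternatives were other level and fold thresholds, pseudocounts, filters and scalings.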

Additional observations from a re-analysis of the deposited data

How the results depend on the processing

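The number of loci rested on the thresholds. It was 74 with a minimum of 10 FPKM in W5S, 18 with 40 FPKM, 215 at 2-fold and 9 at 5-fold, beside 35. It was 47 under median-ratio scaling, 41 under the same nuclear sum, 31 on FPKM + 1 and 35 with rows of several gene IDs. At 3-fold, the called loci were 1 higher and 1 lower in w5C6 than C6, 2 and 2 in C6 against W5NS, and 0 and 2 in w5C6 against W5NS. At 1.5-fold, the lower ones were 9, 9 and 10 in these comparisons. With a pseudocount of 5, there were 1 higher in w5C6 than C6, 2 higher and 3 lower in C6 than W5NS, and 2 lower in w5C6 than W5NS. Of 48 alternative values, 31 stayed within the stated limits and 17 moved. For counts the limit was 1.5 times, whichever loci were counted. The 41 loci under the same nuclear sum were thus within it, although only 27 of the 35 remained. Counts have no direction that could change, and the median log2 difference of w5C6 over C6 stayed negative. The median log2 difference of w5C6 over C6 ranged from -0.19 to -0.10. No paired analysis was possible because only 1 pooled value per population was used, and leaving out single libraries could not be run for the same reason. Depth is unknown, so how precise the low values are cannot be stated.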
